A study of Mus musculus with 2 samples.

Results

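Conventional type 1 dendritic cells (cDC1) of the inflamed mouse colon were followed cell by cell, and 125 of 13923 kept cells belonged to them, 66 in the WT library and 59 in the Ring1AKO library. They were chosen from the measured transcripts. A kept barcode had at least 1000 UMIs (unique molecular identifiers, each standing for 1 captured transcript), at least 500 genes and under 5% of its UMIs from mitochondrial genes. A cDC1 had in addition at least 2 UMIs of Xcr1 and Clec9a together and at least 5 of Cst3, with at most 2 of C1qa, C1qb and C1qc together, none of Cd3e, at most 1 of Cd79a and fewer than 5 of Fscn1 and Ccl22 together.

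cDC1 are the dendritic cells specialised in taking up dying cells and presenting their antigens on MHC class I to CD8 T cells, which is called cross-presentation. They arise under the transcription factors Irf8, Batf3 and Id2, grow in response to the ligand of the receptor Flt3, and in the gut carry the integrin Itgae (CD103). Xcr1 is the receptor for a chemokine released by T and NK cells, and Clec9a binds actin filaments exposed by dead cells.

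The cells came from the colonic lamina propria of C57BL/6 mice (C57BL/6 J in the study's methods) aged 8 to 10 weeks. Their colitis was induced by dextran sulfate sodium (DSS). Ring1AKO mice lack Ring1, also called Ring1a, a ubiquitin ligase subunit of polycomb repressive complex 1, in the whole body, and WT mice were their littermates without that deletion. Both groups received DSS, so no untreated colon enters any comparison. Living leukocytes, sorted as CD45+ and 7-AAD-, were pooled from several mice of a group and run as 1 library for each group on the 10x Genomics droplet platform, which counts transcripts at their 3′ end. With 1 library a group, no test between groups was possible, genotype, mouse pool and library cannot be told apart, and cells are not replicates. Every interval below is a 95% interval for counting error only.

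Total depth was 74414511 UMIs in the WT library and 81862096 in the Ring1AKO library. The gated cDC1 were deep cells. Their median was 22097.5 UMIs in WT (lowest 1073, highest 56505) and 23002 in Ring1AKO (lowest 2807, highest 40692), against 6354 and 5035 over all kept cells. Median genes per cDC1 were 4035.5 and 3776. The 2 libraries shared 11 kept barcodes, of which 0 were cDC1. Doublets were not called.

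Ring1 itself, at chr17:34020792-34024680 on the minus strand of GRCm38, had 25 UMIs in the cDC1 of each library. Its level was 15.8 CPM (the UMIs of a gene over all UMIs of the summed cells, times 1e6; interval 10.2 to 23.3) in WT and 19.4 CPM (12.5 to 28.6) in Ring1AKO, from 21 cells each. In all kept cells outside the gate it was 13.3 and 11.7 CPM. Thus the Ring1 transcript did not separate the libraries, and a 3′ tag outside the deleted part would not do so. The exons deleted are not given in the sources used here, so the labels could not be checked by this gene, and WT and Ring1AKO stand below for the library labelled so. Rnf2, which encodes the other catalytic subunit of the complex, had 22 UMIs in WT and 10 in Ring1AKO.

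Most gated cells carried the markers that the rule had not used. Naaa, which encodes a lysosomal lipid amidase and marks cDC1, was detected in 59 of 66 WT and 56 of 59 Ring1AKO cells, with medians of 20.5 and 17 UMIs per cell. Wdfy4, which is required for cross-presentation, was detected in 59 and 54 cells, with medians of 12 and 10. Batf3 was found in 53 and 47 cells, Irf8 in 64 and 58, and Itgae in 40 and 50. To set these shares against background, cells of 2000 UMIs or more were thinned to 2000 UMIs each, which left out 1 WT cDC1. After thinning, Naaa was found in 66.2% (53.4 to 77.4) of WT and 78.0% (65.3 to 87.7) of Ring1AKO cDC1, against 1.35% and 1.49% of T cells of the same libraries. Unthinned, the same shares were 89.4% and 94.9% of cDC1 and 4.49% and 3.95% of T cells, whose median depth was 6004 and 5787 UMIs. Other classes carried the remaining markers as well. At 2000 UMIs, Wdfy4 was in 52.3% of WT and 50.8% of Ring1AKO cDC1, and in 16.7% and 19.2% of cDC2. Irf8 was in 87.7% and 76.3% of cDC1 and 52.5% and 46.8% of mature dendritic cells. Batf3 was in 14 of 65 and 19 of 59 cDC1 and 8 of 40 and 14 of 47 mature dendritic cells. Itgae was in 29.2% and 47.5% of cDC1 and 18.5% and 20.4% of T cells.

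**Figure D1:**
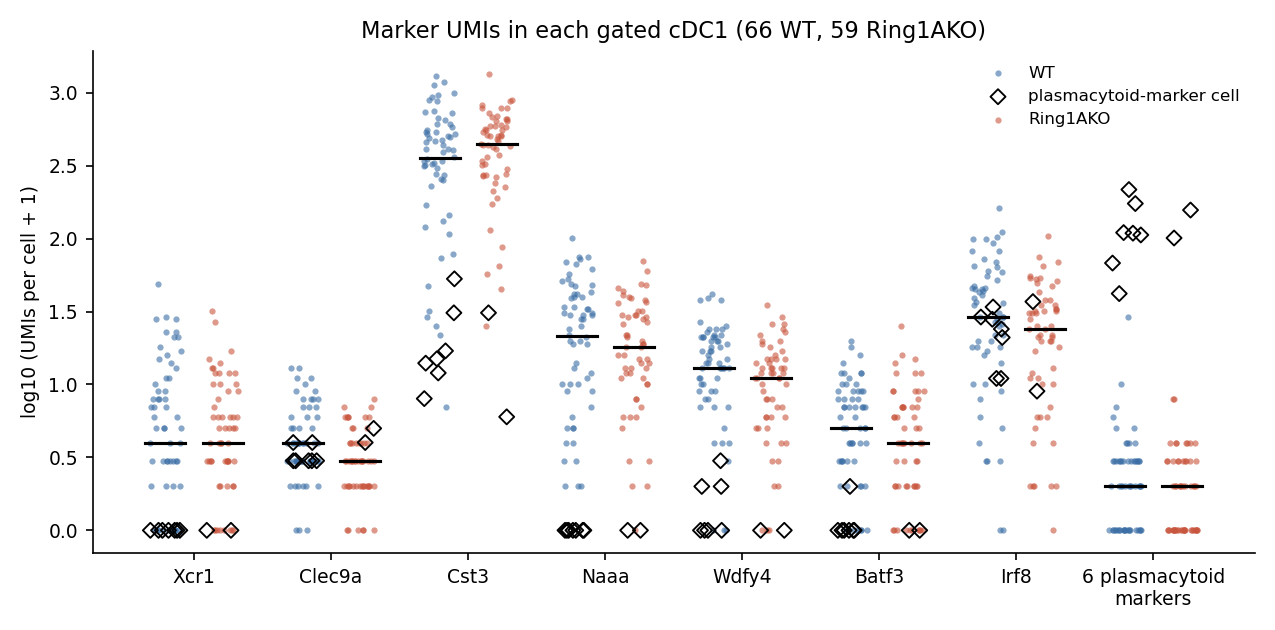
Each point is 1 gated cell, in the WT (blue) or Ring1AKO (red) library, and its height is log10 of the UMIs of the named gene plus 1, with a black line at the median of the library. Open diamonds are the 7 WT and 2 Ring1AKO cells with plasmacytoid markers, which lie at 0 for Xcr1 and Naaa and above all other cells of the gate for the sum of the plasmacytoid markers.

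A small group went against the cDC1 label. Plasmacytoid dendritic cells, which make type I interferon, also carry some Clec9a in mice. Cells with at least 10 UMIs over at least 3 of the plasmacytoid markers Siglech, Tcf4, Ly6d, Klk1, Cox6a2 and Ccr9 numbered 7 in WT (10.6% of the gate) and 2 in Ring1AKO (3.39%). None of them had a UMI of Xcr1 or Naaa, and Batf3 was detected in 1 WT cell among them. The summed level of the 6 markers was 10232 CPM in these WT cells and 12268 CPM in these Ring1AKO cells, against 95.5 and 49.6 CPM in the remaining cells, less the Mki67/Top2a cells described below. Under 3 UMIs of Naaa and Wdfy4 together were found in 9 WT and 5 Ring1AKO cells, of which 2 and 3 were not plasmacytoid-marker cells. Among these, 1 WT cell had 28 UMIs of the 6 markers, and 1 Ring1AKO cell had no Naaa, Wdfy4, Irf8 or Batf3. Such cells stay in where plasmacytoid-marker cells are left out below.

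Xcr1 and Clec9a were both detected in 44 WT and 43 Ring1AKO cells, Clec9a alone in 19 and 10, and Xcr1 alone in 3 and 6. The medians per cell were 3 UMIs of Xcr1 in both libraries, and 3 and 2 UMIs of Clec9a. At the edge of the gate, 16 WT and 12 Ring1AKO cells had exactly 2 UMIs of the pair, and Naaa was found in 11 of each. Another 39 and 21 cells had 1 UMI and otherwise met the rule, and Naaa was found in 27 and 11 of those. Cells with the pair that were kept out by Fscn1 and Ccl22, which mark mature migratory dendritic cells, numbered 5 and 2.

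Most marker lists of other lineages had low sums in the gate, which the rule fixes in part, since it limits Cd3e, Cd79a and the C1q genes. B and plasma cell markers summed to 216 CPM in WT and 233 CPM in Ring1AKO, against 22699 and 21527 CPM in the cells outside the gate, and the immunoglobulin joining chain Jchain was the most abundant of them. T cell markers summed to 18.3 and 14.7 CPM, neutrophil markers to 31.6 and 42.6 CPM, macrophage markers to 35.4 and 43.4 CPM, and epithelial markers to 10.7 and 12.4 CPM. The cDC2 markers summed to 87.2 and 44.2 CPM, with Clec4a4 at 0 in both libraries. The NK list summed to 132 and 136 CPM, mostly from Klrk1, and the mast cell list to 89.1 and 78.3 CPM, mostly from the stem cell factor receptor Kit, which dendritic cells also carry, while the mast cell genes Cpa3 and Cma1 were at 0. Monocyte markers were higher, at 2009 and 2035 CPM, with Plac8 at 1052 and 1131 CPM and Lyz2, the lysozyme of myeloid cells, at 647 and 723 CPM (1049 and 741 CPM without Mki67/Top2a and plasmacytoid-marker cells). Among them Ly6c2 had 330 UMIs in WT and 72 in Ring1AKO, a log2 ratio of -1.89, and 1 cell held 41.5% and 72.2% of these. Its ratio was -3.77 (182 and 17 UMIs) without Mki67/Top2a and plasmacytoid-marker cells. With at least 3 UMIs of Xcr1 and Clec9a, however, 0 of 5 monocyte genes compared were lower by 2-fold, so Ly6c2 was not past 2-fold there.

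With the gate genes left out, the genes of at least 100 CPM that set the gated cells most apart from the other kept cells were Cadm1, Naaa, Tifab, P2ry14, St3gal5, Anpep, Ctla2b, Batf3, Shtn1, Rtl8a, Rtl8b, Tbc1d8, Ppfia4, Ppt1 and Flt3, in that order. They were chosen for this difference, so their values are a description. Cadm1, an adhesion molecule that marks cDC1 across species, stood at 106 CPM in WT and 116 CPM in Ring1AKO cDC1 and at 2.46 and 2.11 CPM outside the gate, so it was 5.43 and 5.77 log2 units higher within it. Naaa stood at 1056 (1006 to 1108) and 926 (875 to 980) CPM in the gate and at 60.3 and 17.5 CPM outside it. Flt3, the growth factor receptor of dendritic cells, was at 235 and 217 CPM in cDC1 and at 151 and 176 CPM in cDC2, whereas Cadm1 was at 2.52 and 1.41 CPM in cDC2. Ctla2b was at 323 and 222 CPM in cDC1 and at 0 and 2.81 CPM in cDC2, but at 133 and 24.1 CPM in mature dendritic cells and 38.2 and 45.3 CPM in T cells, and it was detected in 30 of 66 WT and 37 of 59 Ring1AKO cDC1. Tbc1d8 was at 175 and 185 CPM in cDC1 and at 218 and 265 CPM in mature dendritic cells. The summed cDC1 identity list was 6764 and 6574 CPM in cDC1, 1058 and 1078 CPM in cDC2, 2587 and 2892 CPM in mature dendritic cells and 777 and 1009 CPM in T cells. The cDC2 gate carried markers of other cells as well. Its plasmacytoid markers summed to 997 and 820 CPM, with Siglech in 18.3% and 17.3% of cells, and its monocyte markers to 4862 and 3305 CPM. Plasmacytoid-marker cells were left out of cDC1 only, so values of cDC2 include such cells throughout.

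The share of cDC1 among kept cells was lower in the Ring1AKO library, but the direction depended on what the share was taken of. It was 1.10% (0.851 to 1.40) in WT and 0.745% (0.568 to 0.960) in Ring1AKO, a log2 ratio, Ring1AKO over WT, of -0.56 (-1.07 to -0.06). cDC2 went from 0.999% to 0.657% (log2 ratio -0.61) C1q macrophages from 2.88% to 1.41% (-1.03), T cells from 19.7% to 15.3% (-0.36) and mature dendritic cells from 0.683% to 0.619% (-0.14, -0.74 to 0.45). Among kept cells that were not of the B lineage, cDC1 were 66 of 3296 in WT and 59 of 2687 in Ring1AKO, a log2 ratio of 0.13 (-0.37 to 0.63). Among cells with at least 5 UMIs of Cst3 and no Cd3e, they were 3.52% and 4.62%, a log2 ratio of 0.39 (-0.10 to 0.89). Without the plasmacytoid-marker cells the ratio over all kept cells was -0.45 (-0.97 to 0.07), and without these and the Mki67/Top2a cells it was -0.012 (-0.61 to 0.59).

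**Figure D2:**
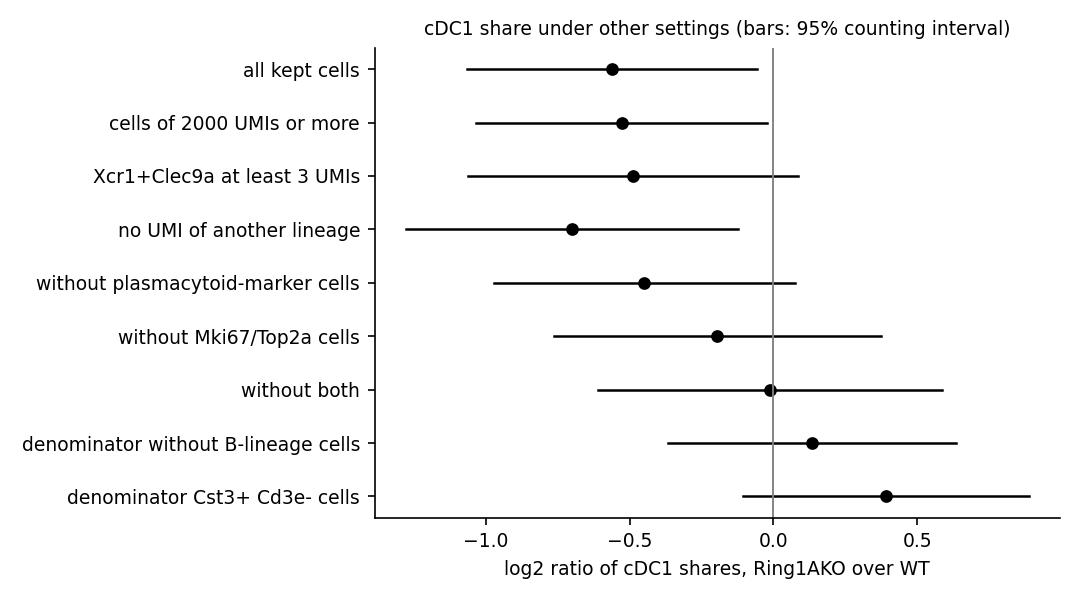
Points are log2 ratios of the cDC1 share, Ring1AKO over WT, and bars are 95% intervals for counting error, for the gate as defined (top) and for other gates and denominators. The ratio is -0.56 over all kept cells and 0.39 over cells with Cst3 and without Cd3e.

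The identity genes of cDC1 were compared between the libraries first. Of the 16 genes of the identity list, which holds no gate gene, 15 reached the 50 UMIs over both libraries that were asked of every gene compared. The ratio was taken of CPM with 1 UMI added to each sum. Of these genes, 0 were past 2-fold in either direction, and their median log2 ratio was -0.04, where 1.28% of all genes compared were higher and 7.13% lower, so that a list of this size with none is near the background. Batf3 was at 203 CPM in WT and 198 CPM in Ring1AKO. Irf8, which directs cDC1 development, was at 1530 and 1187 CPM, a log2 ratio of -0.37 (-0.46 to -0.27). Id2, which restrains the plasmacytoid programme, was at 702 and 1045 CPM, a log2 ratio of 0.57 (0.46 to 0.69), which was the highest of the list. Tlr3, the endosomal sensor of double-stranded RNA, was the lowest of the list, at 107 and 58.1 CPM, a log2 ratio of -0.87 (-1.29 to -0.48). With the gate on thinned cells, 1 of the 15 was lower. The gate genes were at 282 and 243 CPM for Xcr1, 150 and 108 CPM for Clec9a and 16812 and 20514 CPM for Cst3.

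Over all 5319 genes compared in cDC1, 68 were higher in Ring1AKO by at least 2-fold, which is 1.28% of them, and 379 were lower, which is 7.13%. The median log2 ratio was -0.18, and the same genes had a median of -0.12 in the other kept cells. Values outside the gate, here and below, pool all other kept cells, whose makeup differed between the libraries. Cells not of the B lineage were 3296 of 6005 kept cells in WT and 2687 of 7918 in Ring1AKO. How far this makeup enters the ratios outside the gate was not tested. With the median set to 0, 104 genes were higher and 248 lower. Without Mki67/Top2a and plasmacytoid-marker cells, 3913 genes were compared, of which 55 were higher and 153 lower.

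**Figure D3:**
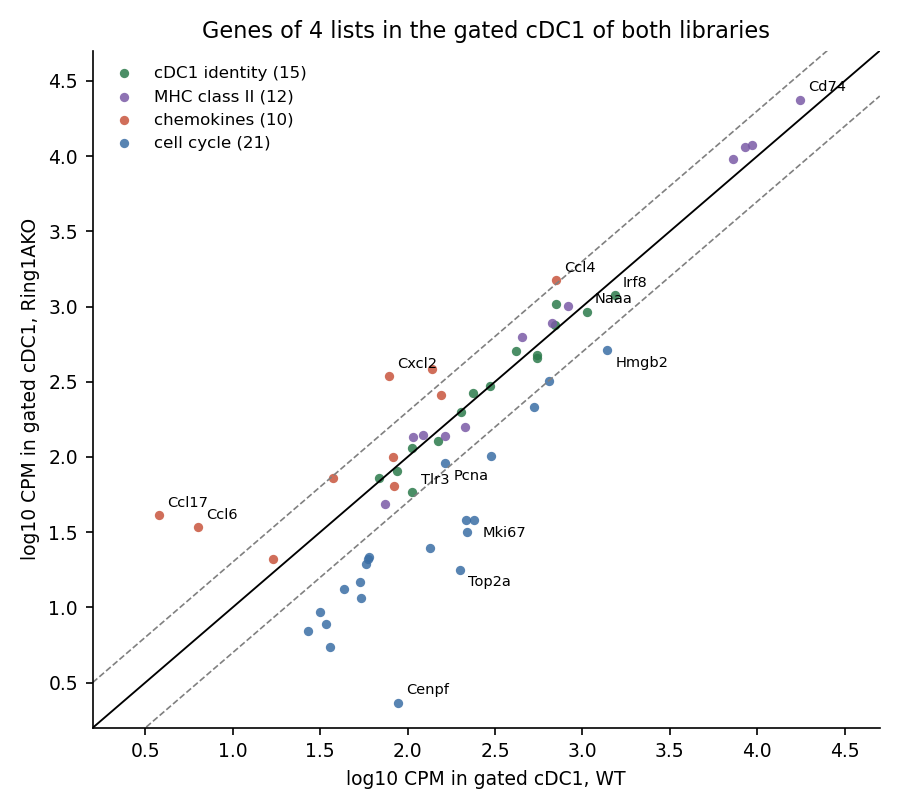
Each point is a gene of 1 of 4 lists, with log10 CPM in the summed cDC1 of WT on the x axis and of Ring1AKO on the y axis. The solid line marks equal levels and the dashed lines 2-fold differences, so that 20 of 21 cell cycle genes lie below the lower dashed line, 5 of 10 chemokines above the upper one, and the identity and MHC class II genes between them.

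Of the 30 gene lists, the cell cycle list had the most genes past 2-fold. Mki67, the Ki-67 antigen of dividing cells, was at 240 CPM in WT (380 UMIs in 27 cells) and 38.0 CPM in Ring1AKO (49 UMIs in 13 cells), a log2 ratio of -2.63 (-3.12 to -2.23). Top2a, the topoisomerase that untangles chromosomes in mitosis, was at 199 CPM (315 UMIs in 21 cells) and 17.8 CPM (23 UMIs in 7 cells), a log2 ratio of -3.42 (-4.16 to -2.87). Of the 21 list genes compared, 20 were lower by at least 2-fold and 0 higher, where 7.13% of all genes were lower, and the median log2 ratio was -1.81. The exception was Pcna, the replication clamp, at 165 and 90.7 CPM. The lowest ratio was that of Cenpf, a kinetochore protein, with 140 UMIs in 11 WT cells and 3 UMIs in 2 Ring1AKO cells (log2 ratio -4.84). The same list genes had a median log2 ratio of -0.29 in cDC2, 0.29 in mature dendritic cells, 1.11 in C1q macrophages and 0.08 over all cells outside the gate. Mki67 and Top2a themselves were lower outside the gate too, with log2 ratios of -1.24 and -0.75, and in T cells with -1.52 and -0.91. Summed, the list was at 4606 and 1526 CPM in cDC1, 790 and 772 CPM in cDC2 and 2450 and 1981 CPM in T cells.

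Single cells showed where these transcripts lay. At least 3 UMIs of Mki67 and Top2a together were found in 20 of 66 WT cDC1 (30.3%, 19.6 to 42.9) and 6 of 59 Ring1AKO cDC1 (10.2%, 3.82 to 20.8). These Mki67/Top2a cells held 683 of 695 and 57 of 72 of the UMIs of the pair. The 20 WT cells had 32 to 735 UMIs of the whole cell cycle list. Some of them had no Top2a, with 163, 85, 72 and 73 UMIs of the list. The 6 Ring1AKO cells were mixed, since 3 had 108, 420 and 423 UMIs of the list, whereas the other 3 had no Top2a and 21, 22 and 31 UMIs of the list. A Ring1AKO cell with 154 UMIs of the list and 1 of the pair fell outside the rule. All cells outside it had 2 to 50 UMIs of the list in WT and 3 to 154 in Ring1AKO. At least 20 UMIs of Mki67 and Top2a together were found in 11 and 1 cells, and the highest cell had 94 and 23 of them. Depth moved with this count, since Mki67/Top2a cells had medians of 36264 and 37201.5 UMIs against 19004 and 22464 in the other cells of the gate. Therefore each cell was thinned to 2000 UMIs, after which 27.7% (17.3 to 40.2) of 65 WT cells and 3.39% (0.413 to 11.7) of 59 Ring1AKO cells had a UMI of the pair. The shares before thinning were 45.5% and 27.1%. At the same thinned depth T cells had 11.7% and 8.68%, cDC2 9 of 60 and 4 of 52 cells, and mature dendritic cells 3 of 40 and 4 of 47. Thinned to 10000 UMIs, the shares of cDC1 were 42.1% and 18.5%, which left out 9 and 5 shallower cells. At that depth T cells had 57.6% and 36.6%, after 1037 and 1084 shallower T cells were left out.

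**Figure D4:**
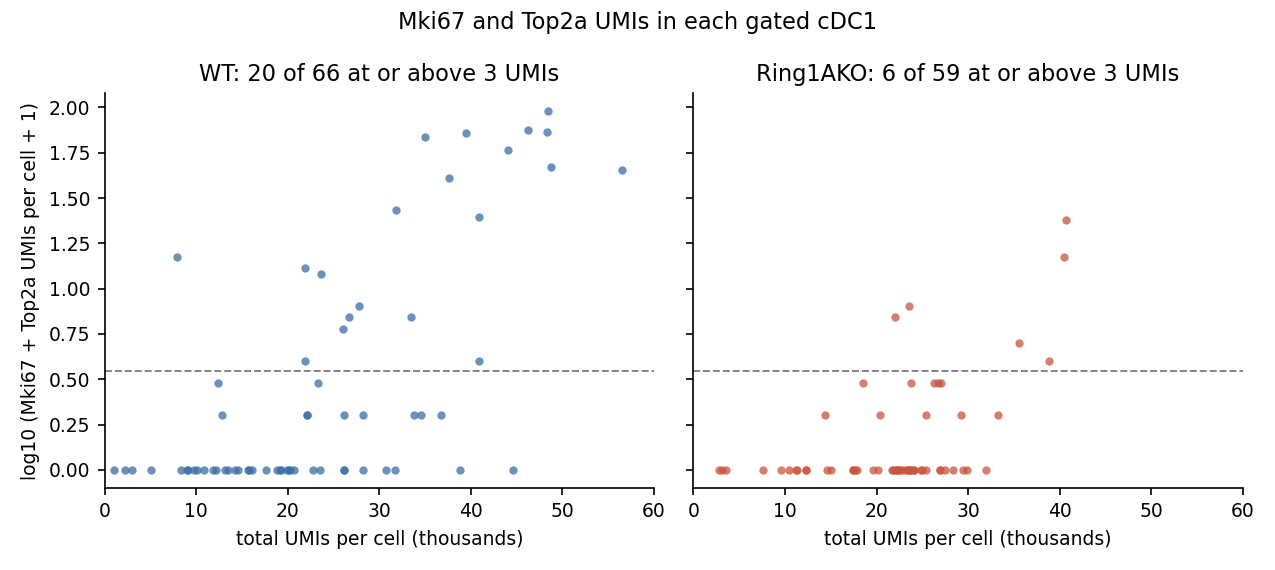
Each point is 1 gated cDC1, with its total UMIs (axis marked per 1000) on the x axis and log10 of its Mki67 and Top2a UMIs plus 1 on the y axis, WT on the left and Ring1AKO on the right. The dashed line parts cells with 2 and 3 UMIs, and 20 WT and 6 Ring1AKO cells lie above it.

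The identity list of the Mki67/Top2a cells summed to 7502 CPM in WT and 7276 CPM in Ring1AKO. One of the 3 Ring1AKO cells without Top2a had 94 UMIs of Ccr7, 1 of Irf8 and 0 of Batf3. The identity list of the cells that were neither Mki67/Top2a nor plasmacytoid-marker cells summed to 6529 and 6523 CPM. In the latter the cell cycle list stood at 935 and 868 CPM, as the choice of these cells fixes in part, and 4 of its genes reached 50 UMIs, of which 0 were past 2-fold. The cell cycle list without the plasmacytoid-marker cells again had 20 of 21 genes lower and a median of -1.86. When the gate was set on cells thinned to 2000 UMIs, 6 of 15 genes were lower and the median was -0.85. That gate holds 44 WT and 35 Ring1AKO cells.

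Genes of late cell cycle often share 2 promoter elements, the CCAAT box, which is bound by NF-Y, and the cell cycle homology region, whose core is TTTGAA. Promoters are shown for 3 list genes to let their elements be seen, with each match in capitals on either strand (so that ATTGG is CCAAT, and TTCAAA is TTTGAA, on the other strand). They run 5′ to 3′ from 250 bases before to 50 bases after the gene's start, from RefSeq on GRCm38.p6, and all 3 lie on the minus strand, Top2a at chr11:99024140-99024439, Ccnb2 (cyclin B2) at chr9:70421505-70421804 and Cdk1 (the kinase that cyclin B activates) at chr10:69352863-69353162.
Top2a: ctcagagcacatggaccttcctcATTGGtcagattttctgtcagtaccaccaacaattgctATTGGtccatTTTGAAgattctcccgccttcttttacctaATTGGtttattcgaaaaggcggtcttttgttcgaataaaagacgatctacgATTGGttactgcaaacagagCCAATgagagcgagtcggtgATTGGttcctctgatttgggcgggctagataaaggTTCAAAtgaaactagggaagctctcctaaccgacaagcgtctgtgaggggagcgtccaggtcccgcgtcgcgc
Ccnb2: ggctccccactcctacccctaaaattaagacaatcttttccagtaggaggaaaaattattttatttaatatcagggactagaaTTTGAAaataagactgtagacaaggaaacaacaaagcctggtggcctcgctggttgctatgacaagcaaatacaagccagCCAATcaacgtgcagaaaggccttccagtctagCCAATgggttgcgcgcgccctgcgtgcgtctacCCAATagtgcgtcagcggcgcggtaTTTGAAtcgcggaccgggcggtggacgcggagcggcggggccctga
Cdk1: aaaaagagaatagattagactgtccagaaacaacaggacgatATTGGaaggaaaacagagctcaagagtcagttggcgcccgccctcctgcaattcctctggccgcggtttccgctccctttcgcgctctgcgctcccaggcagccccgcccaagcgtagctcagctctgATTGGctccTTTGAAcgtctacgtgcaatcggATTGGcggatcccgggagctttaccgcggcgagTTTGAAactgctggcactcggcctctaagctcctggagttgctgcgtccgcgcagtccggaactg
Top2a holds 6 matches to CCAAT and 2 to TTTGAA, and Ccnb2 and Cdk1 hold 3 and 2 each, and no match overlapped another. Of the 22 list genes, 20 had a promoter in the table, and CCAAT was in 16 of these (80.0%) and TTTGAA in 7, against 41.1% and 20.2% of all 27025 genes with a promoter there. Both were in 7 of the 20 and in 7.97% of all genes. A match describes these letters and does not show binding. Ccnb2 was at 54.3 CPM in WT cDC1 and 11.6 CPM in Ring1AKO cDC1 (86 and 15 UMIs), and Cdk1 at 36.0 and 5.43 CPM (57 and 7 UMIs).

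Of genes with at least 100 CPM in either library and a UMI in at least 10% of the cDC1 of the library where they were higher, the 12 with the lowest ratios were mostly of this kind. They were, next to Top2a and Mki67, Pclaf, a PCNA-binding factor, at 220 and 31.8 CPM (log2 ratio -2.76), Ube2c, which helps degrade mitotic cyclins, at 216 and 38.0 CPM (-2.48), and Birc5, which encodes survivin, at 135 and 24.8 CPM (-2.41). Replication histones were lower as well. H1f5 was at 199 and 3.10 CPM (-5.69), H1f4 at 158 and 10.9 CPM (-3.77), H2ac8 at 157 and 11.6 CPM (-3.67) and H2ac24 at 235 and 53.5 CPM (-2.12). Outside the gate the first 3 were also lower, with log2 ratios of -2.65, -2.26 and -1.89, whereas H2ac24 was at 0.31, and at 0.16 in the gate (5 and 8 UMIs) without Mki67/Top2a and plasmacytoid-marker cells. H1f4 remained lower without Mki67/Top2a and plasmacytoid-marker cells, at -2.42 (-4.38 to -1.20, 23 and 5 UMIs), while H1f5 (6 and 1 UMIs) and H2ac8 (6 and 2 UMIs) had intervals that hold 0. Without the same cells the direction turned for Pclaf (2.48, 1 and 14 UMIs), Ube2c (0.58, 4 and 9 UMIs) and Birc5 (1.16, 0 and 2 UMIs), from few UMIs. Siglech, a lectin of plasmacytoid cells, was at 121 and 25.6 CPM (-2.20), and without the Mki67/Top2a and plasmacytoid-marker cells its ratio was 0.061.

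The other 2 genes were Hmgcs1 and Lars2. Hmgcs1, an enzyme of cholesterol synthesis, had 172 UMIs in 35 WT cells and 20 UMIs in 17 Ring1AKO cells, which is 109 and 15.5 CPM and a log2 ratio of -2.75 (-3.56 to -2.14). It was as low without the Mki67/Top2a and plasmacytoid-marker cells (-2.67), and its ratio was -0.79 outside the gate, -0.26 in cDC2 and -1.54 (-2.43 to -0.82) in mature dendritic cells. Lars2, the mitochondrial leucyl-tRNA synthetase, was at 134 and 31.0 CPM (-2.08), with -1.10 outside the gate, -1.73 in cDC2 and -1.85 in mature dendritic cells. In barcodes under 100 UMIs, taken as cell-free RNA, Lars2 was at 170 and 130 CPM, above its cDC1 level in both libraries.

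Chemokines were the list with most genes higher in Ring1AKO cDC1. Ccl4, which draws T cells and monocytes, was at 703 CPM in WT (1113 UMIs in 47 cells) and 1503 CPM in Ring1AKO (1939 UMIs in 45 cells), a log2 ratio of 1.10 (0.989 to 1.204). Ccl3, a related chemokine, was at 138 and 387 CPM (1.49), and Cxcl2, which draws neutrophils, at 78.3 and 345 CPM (2.13, 1.85 to 2.44). Of 10 chemokine genes compared, 5 were higher by at least 2-fold and 0 lower, where 1.28% of all genes were higher, and the median log2 ratio was 1.03. The remaining pair rested on fewer UMIs, with 10 and 44 for Ccl6 and 6 and 53 for Ccl17, and in Ring1AKO a single cell held 56.8% and 54.7% of them. In cDC2 the same list had a median of 0.85, in C1q macrophages 0.72, in mature dendritic cells -0.097 and over all cells outside the gate -0.32. Without Mki67/Top2a and plasmacytoid-marker cells 7 were compared, of which 4 were higher and 1 lower, with a median of 1.61. The 4 were Ccl2 (8 and 87 UMIs, 2.87), Ccl4 (1.72), Cxcl2 (1.63) and Ccl3 (1.61), and the lower one was Cxcl9 (-1.15), while Ccl6 and Ccl17 had too few UMIs. With all gated cells Ccl2, which draws monocytes, had 59 and 94 UMIs (0.96).

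Cxcl2 was uneven between cells, with UMIs in 26 WT and 33 Ring1AKO cells, of which the highest held 62 of 124 UMIs in WT and 35.5% in Ring1AKO. Its level in barcodes under 100 UMIs, taken as cell-free RNA, was 1813 and 1488 CPM, above the level in cDC1 of either library. When the cell-free profile was subtracted at 5% of the UMIs, nothing was left of Cxcl2 in WT, so its fold cannot be given under that assumption. Summed over the list, chemokine transcripts were at 1305 and 2835 CPM in cDC1 and at 2829 and 3296 CPM in cDC2. Cytokines differed less. Tnf had 24 and 53 UMIs (log2 ratio 1.41, 0.72 to 2.20) and was past 2-fold, the other 5 compared were not (1.28% of all genes were higher), and the list median was 0.13. Il12b, the interleukin 12 subunit by which cDC1 drive Th1 cells, had 31 UMIs in 4 WT cells and 22 UMIs in 9 Ring1AKO cells, and was at 0 in cDC2 of both libraries and at 356 and 527 CPM in mature dendritic cells, against 19.6 and 17.1 CPM in cDC1. Il1b was at 1077 and 1195 CPM in cDC1 (at 1672 and 1154 CPM, a log2 ratio of -0.54, without Mki67/Top2a and plasmacytoid-marker cells) and at 5734 and 5557 CPM in cDC2.

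The other genes among the 12 with the highest ratios under the same conditions came from several functions. Mt1, a metal-binding metallothionein, was at 97.9 CPM in WT and 514 CPM in Ring1AKO cDC1 (log2 ratio 2.39, 2.14 to 2.65), with 2.02 in cDC2 and -0.12 outside the gate. Fosl2, an AP-1 subunit, was at 31.0 and 116 CPM (1.89), with -0.11 in cDC2. Plet1, a surface protein of intestinal dendritic cells, was at 41.1 and 178 CPM (2.10), and Wfdc17, a small secreted protein, at 96.0 and 318 CPM (1.72). Several more rested on few cells. Ccr7, the receptor that guides dendritic cells to lymph nodes, had 61 UMIs in 12 WT cells and 228 in 17 Ring1AKO cells (2.18), but 2 cells held 72.4% of the latter. Without Mki67/Top2a and plasmacytoid-marker cells its ratio was 1.01, and 1 of those 2 cells remained, with 71 of the 134 Ring1AKO UMIs. Likewise 2 cells in Ring1AKO held 53.2% of Hilpda, a lipid droplet protein induced by hypoxia (33.5 and 133 CPM, 1.97). In Ring1AKO 2 cells also held 51.9% of Il1r2, the interleukin 1 decoy receptor (54.3 and 160 CPM, 1.55), and 50.3% of Ifitm1, an interferon-induced membrane protein (471 and 1458 CPM, 1.63). With Mki67/Top2a and plasmacytoid-marker cells left out, Hilpda was at 41.5 and 84.3 CPM. Its log2 ratio, with 1 UMI added to each sum, was then 0.996 and no longer called. Il1r2 was at 1.18 and Ifitm1 at 1.30. Ifitm6 of the same family was at 32.2 and 107 CPM (1.71), and Ramp3, a partner of calcitonin-family receptors, at 30.3 and 100 CPM (1.70). In cell-free RNA Fosl2 was at 293 and 247 CPM, Hilpda at 181 and 229 CPM, Ramp3 at 171 and 187 CPM and Ccr7 at 174 and 393 CPM, each above its cDC1 level in both libraries. With the cell-free profile subtracted at 5%, their ratios were 2.63, 2.29, 2.03 and 2.38. Cell-free levels were above those of cDC1 in WT alone for Mt1 (445 and 437 CPM), Wfdc17 (341 and 298 CPM) and Il1r2 (161 and 133 CPM). The same held for Ifitm1 (520 and 464 CPM) and Ifitm6 (73.4 and 53.7 CPM). The highest ratio of the 12 belonged to Gm42031, a gene model without a given function, at 6.95 and 131 CPM (4.12), and it was 3.17 outside the gate.

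Antigen presentation genes past 2-fold were about as frequent as among all genes. On the MHC class II side, Cd74, the invariant chain, was at 17482 CPM in WT and 23651 CPM in Ring1AKO (log2 ratio 0.44, 0.41 to 0.46), and H2-Aa at 8551 and 11402 CPM (0.42). Of 12 genes compared 0 were past 2-fold, the median was 0.31, and in the other cells it was 0.49. By class, the median of the same genes was 0.39 in cDC2, 0.02 in C1q macrophages and -0.12 in mature dendritic cells. Ciita, the class II transactivator, was at 214 and 157 CPM (-0.44). On the cross-presentation side, which holds MHC class I, peptide transport and immunoproteasome genes, 28 genes were compared, with 0 higher, 2 lower and a median of -0.08, beside 1.28% higher and 7.13% lower of all genes. Tap1, a subunit of the peptide transporter, was at 280 and 233 CPM, and Psmb8, an immunoproteasome subunit, at 1158 and 981 CPM. The 2 lower genes were Pdia3, of the peptide-loading complex, at 550 and 229 CPM (-1.26), and Cybb, the NADPH oxidase subunit, at 73.9 and 22.5 CPM from 12 and 4 cells (-1.68, and -3.38 from 30 and 3 UMIs without Mki67/Top2a and plasmacytoid-marker cells). Pdia3 had a ratio of -1.29 outside the gate.

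Over all gated cells, the interferon-gamma response genes with enough UMIs to be compared had ratios nearer to 0 in cDC1 and mature dendritic cells than in cDC2 or C1q macrophages. This difference could not be tested. Of the 23 genes of the interferon-gamma list 8 were compared, 1 was higher, 1 lower (1.28% and 7.13% among all genes), and the median log2 ratio was -0.48. The rest had under 50 UMIs, among them Iigp1 and Gbp5 described below, and do not enter this median. Of the 23, 4 had no UMI in Ring1AKO cDC1 and 0 had none in WT cDC1. With the gate on cells thinned to 2000 UMIs, 9 were compared, 1 was higher and 2 lower, and the median was 0.43, so its sign depends on the gate. The same 8 had medians of -0.65 in mature dendritic cells, -2.15 in cDC2, -2.88 in C1q macrophages and -1.65 over all cells outside the gate. Irf1, an interferon-induced transcription factor, was at 126 and 81.4 CPM (-0.62). Gbp2, an interferon-induced GTPase, was the lower one, at 60.6 and 9.30 CPM (96 and 12 UMIs, -2.60, and -3.22 without Mki67/Top2a and plasmacytoid-marker cells), and Serpina3g, a protease inhibitor, the higher one, at 10.1 and 30.2 CPM (16 and 39 UMIs, 1.53, and 0.47 without Mki67/Top2a and plasmacytoid-marker cells). Summed, the list was at 695 and 459 CPM in cDC1, 2608 and 407 CPM in cDC2 4582 and 969 CPM in C1q macrophages, 1680 and 1153 CPM in mature dendritic cells and 1479 and 1135 CPM in T cells, so that WT cDC1 stood below WT cDC2. Without Mki67/Top2a and plasmacytoid-marker cells, 6 genes were compared, of which 4 were lower and 0 higher, and the median was -1.07, with Irf1 at -1.08.

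Some GTPases of the list were found in WT cDC1 alone. Iigp1 had 35 UMIs in 7 WT cells, 57.1% of them in 1 cell, and 0 in Ring1AKO, and Gbp5 had 21 UMIs in 7 cells and 0. Against the floor of 3 counts over the Ring1AKO cDC1, they were at least 9.51-fold and 5.70-fold lower. Cxcl9, an interferon-gamma target that draws T cells, was at 84.0 and 64.3 CPM in cDC1 (-0.38, -0.80 to 0.02), in 14 cells of each library, and its ratio was -1.15 without Mki67/Top2a and plasmacytoid-marker cells, whereas it was at 69.4 and 4.22 CPM in cDC2 and 607 and 4.48 CPM in C1q macrophages. Cxcl10 was at 82.1 and 100 CPM in cDC1, where 1 WT cell held 70.0% of its UMIs (142 and 116 CPM, -0.29, without Mki67/Top2a and plasmacytoid-marker cells), and at 1001 and 83.0 CPM in cDC2. In the type I interferon list 8 genes were compared, with 0 higher, 1 lower (7.13% of all genes were lower) and a median of 0.02, against -1.11 outside the gate. The lower one was Isg15, a ubiquitin-like protein, at 33.5 and 6.98 CPM (-2.14). Without Mki67/Top2a and plasmacytoid-marker cells 2 of the 8 were lower, the median was -0.25, Isg15 was at -3.36 and Zbp1, a sensor of Z-form nucleic acid, at -1.27.

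**Figure D5:**
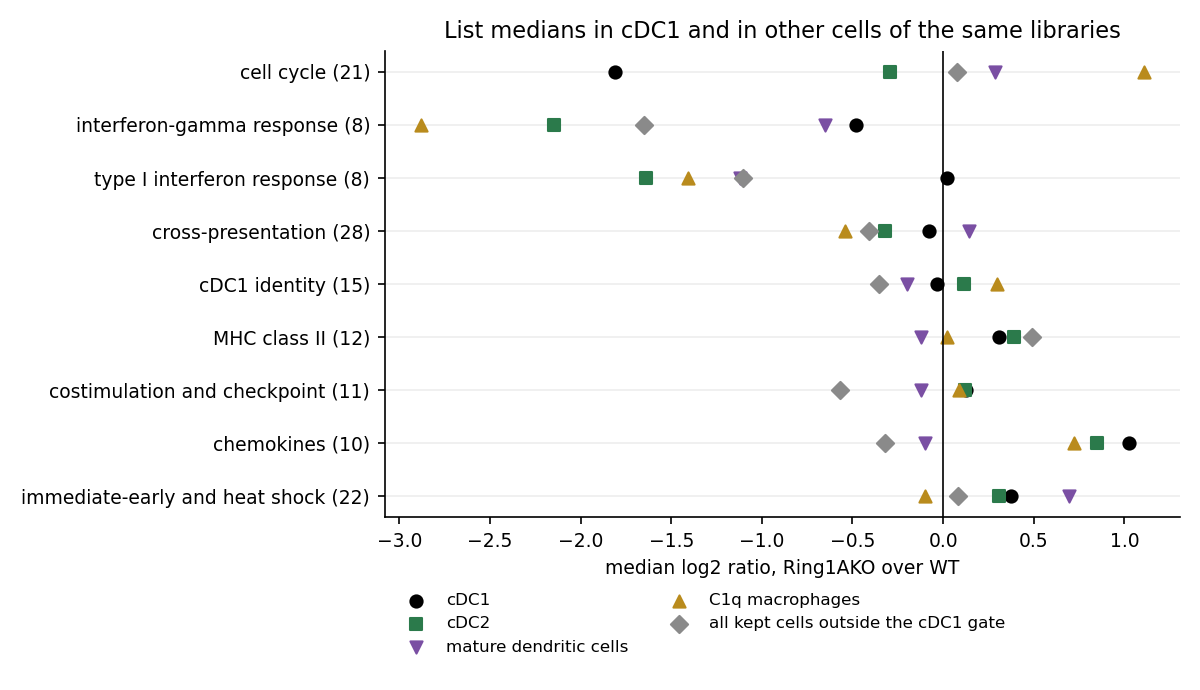
Symbols are median log2 ratios, Ring1AKO over WT, of 9 gene lists in cDC1 (circles), cDC2 (squares), mature dendritic cells (downward triangles), C1q macrophages (upward triangles) and all kept cells outside the cDC1 gate (diamonds), over the genes with at least 50 UMIs in cDC1, whose number is in brackets. For the cell cycle, cDC1 are at -1.81 with the other 4 between -0.29 and 1.11, and for the interferon-gamma response they are at -0.48, with mature dendritic cells at -0.65 and the other 3 between -2.88 and -1.65.

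Among sensing receptors 9 genes were compared and 0 were past 2-fold, with a median of 0.02, beside 1.28% higher and 7.13% lower of all genes. Tlr11 and Tlr12, which together sense profilin of protozoa and mark cDC1, had 30 and 28 UMIs and 121 and 52 UMIs (log2 ratios 0.20 and -0.91), and without Mki67/Top2a and plasmacytoid-marker cells the ratio of Tlr12 was -1.13, past 2-fold. Among costimulatory and checkpoint genes 0 of 11 were past 2-fold, and Cd86, a ligand of CD28, was at 140 and 174 CPM (0.31), while Cd274, the ligand PD-L1, was at 105 and 66.7 CPM (-0.65, and -1.63 without Mki67/Top2a and plasmacytoid-marker cells). Genes for uptake of dead cells had 0 of 7 past 2-fold, those of retinoic acid and TGF-beta 0 of 6, those of Flt3, GM-CSF and other cytokine receptors 0 of 15, and those of glycolysis and hypoxia 0 of 16, with medians of -0.20, -0.42, -0.25 and 0.09. The conventional dendritic cell list had 0 of 6 past 2-fold and a median of -0.18. Csf2rb, the shared chain of the GM-CSF receptor, was at 411 and 599 CPM (0.55), with -1.06 outside the gate.

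The counts that follow stand beside 1.28% higher and 7.13% lower among all genes. Homing receptors had 1 of 14 higher, the Ccr7 described above, and 2 lower. The lower ones were Itga4, the alpha 4 integrin that pairs with Itgb7 for gut homing, at 237 and 117 CPM (-1.01) in 60 and 47 cells, and Ccr9, the gut homing receptor that plasmacytoid cells carry too, at 113 and 54.3 CPM (-1.05, and -1.65 from 20 and 8 UMIs without Mki67/Top2a and plasmacytoid-marker cells). With at least 3 UMIs of Xcr1 and Clec9a, 0 of 13 homing receptors were lower. With the median ratio of all genes set to 0, or with CPM without mitochondrial, ribosomal and immunoglobulin genes, 0 of 14 were lower. Without the mitochondrial limit, or without the limit on Fscn1 and Ccl22, 0 of 14 were higher, so the Ccr7 call ended. Among dendritic cell transcription factors 2 of 19 were lower and 0 higher. These were Tcf4, the master regulator of plasmacytoid cells, at 121 and 57.4 CPM (-1.06) and Zeb2 at 35.4 and 9.30 CPM (-1.84, and -2.51 without Mki67/Top2a and plasmacytoid-marker cells), and the list median was -0.10. The count depended on the gate. With at least 3 UMIs of Xcr1 and Clec9a, 18 of the list were compared, 2 were higher, 0 lower, and the median was 0.075. With the median ratio of all genes set to 0, 1 was higher and 1 lower. Immediate-early and heat shock genes had 2 of 22 higher, Fosl2 and Ier3 (186 and 426 CPM), with a median of 0.37. Of the polycomb list 12 were compared, with 0 higher, 1 lower and a median of -0.30. The lower one was Suz12, a subunit of polycomb repressive complex 2, at 63.2 and 27.1 CPM (-1.19), and without Mki67/Top2a and plasmacytoid-marker cells its ratio was -0.37. Ezh2, the methyltransferase of that complex, was at 105 and 70.5 CPM (-0.56, and 0.39, -0.19 to 1.03, without Mki67/Top2a and plasmacytoid-marker cells), and the cell cycle inhibitors Cdkn2a and Cdkn2b, which polycomb complexes repress in many tissues, were at 0 UMIs in the cDC1 of both libraries.

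Of the lists of other cell types, the plasmacytoid one had 4 of 6 genes lower, where 7.13% of all genes were lower and 1.28% higher, with a median of -1.05 and sums of 587 and 250 CPM. With the gate raised to at least 3 UMIs of Xcr1 and Clec9a its median was 0.42. The monocyte list had 1 of 5 lower (Ly6c2), and 0 of 5 with that raised gate. The B and plasma cell list had 1 of 2 lower, Mzb1, an endoplasmic reticulum protein of plasma and plasmacytoid cells, with 41 and 11 UMIs. Without Mki67/Top2a and plasmacytoid-marker cells Mzb1 had 4 and 8 UMIs, a log2 ratio of 0.42 (-1.32 to 2.76). The mature dendritic cell list had 2 of 3 higher, Ccr7 and Ccl17, and sums of 135 and 294 CPM. The part of these cells in the other differences was not tested beyond the values given without plasmacytoid-marker cells.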

How the data were processed

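The deposited matrices list unnormalized UMI counts of every barcode, before cell calling, for 1 library of pooled cells per group. The authors made these counts with Cell Ranger. The matrix headers name version 4, the submitters' processing notes list Cell Ranger 6.0.2, Seurat and mm39, and the study's methods name mm10 and an earlier Cell Ranger than either, so version and build are not settled. Gene IDs matched GENCODE vM21 for 32099 of 32228 genes, and coordinates are those of GRCm38.

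UMIs of the gated cells were summed per library and divided by their total to give CPM. Ratios had 1 UMI added to each sum and exact conditional binomial intervals, shares had exact Clopper-Pearson intervals, and levels exact Poisson intervals, all at 95% and for counting error only. A gene was compared where both libraries together gave it 50 UMIs or more, and at least 2-fold was called. Only the ratio and its interval were tried on simulated data, as Poisson counts drawn for the summed cDC1 profile (5319 genes, 200 changed by 2-fold, 100% of directions recovered). No single cells were simulated. The gate, the thinning and sums that rest on few cells were therefore not checked by it. No test between groups was made.

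Named genes were Ring1, the gate genes and markers, the 12 highest and 12 lowest ratios under the conditions given with them (intervals without 0; immunoglobulin, T-cell-receptor, sex-linked and gate genes left out), the 15 genes highest against other cells, and members of each list at the extremes of ratio or level; a few more list members were named after their values were seen. The members and lists were chosen with earlier results of these data known. cDC2, mature dendritic cells, C1q macrophages and T cells were gated by UMIs too. Alternatives varied cell filters, gate, denominator, scaling, gene filter, pseudocount and cell-free RNA. Python 3.11.15, numpy 2.4.6, scipy 1.17.1, pandas 2.3.3 and matplotlib 3.10.9 were used.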

Additional observations from a re-analysis of the deposited data

Results flagged for a closer look

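For 5 genes the ratio, Ring1AKO over WT, was past 2-fold in opposite directions in cDC1 and in another gated class, with neither counting interval holding 0. With 1 library a group, the difference was not tested. Ifitm6 had a log2 ratio of 1.71 in cDC1 (51 and 138 UMIs) and -1.22 in C1q macrophages (205 and 40 UMIs). Serpina3g had 1.53 in cDC1 (16 and 39 UMIs) and -3.59 in C1q macrophages (103 and 3 UMIs), but 0.47 (-0.50 to 1.61) in cDC1 without Mki67/Top2a and plasmacytoid-marker cells. Stmn1, a microtubule regulator of the cell cycle list, had -1.57 in cDC1 (476 and 130 UMIs) and 1.64 in C1q macrophages (28 and 41 UMIs), but 1.73 (0.74 to 3.17) in cDC1 without those cells, the same direction as in macrophages. Mcm3, a subunit of the replicative helicase, had -1.45 in cDC1 (96 and 28 UMIs) and 1.11 in C1q macrophages (25 UMIs in each), but -0.18 (-1.23 to 0.93) in cDC1 without those cells. Tcf4 had -1.06 in cDC1 (191 and 74 UMIs) and 1.04 in mature dendritic cells (30 and 63 UMIs). Without those cells Ifitm6 was at 1.27 and Tcf4 at -1.01 in cDC1, so under this alternative the opposite call held for these 2 and ended for the other 3. The call of Tcf4 ended under others. With at least 3 UMIs of Xcr1 and Clec9a, 0 genes of the transcription factor list that holds Tcf4 were lower. With the median ratio of all genes set to 0, Tcf4 was under 2-fold in cDC1.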

How the results depend on the processing

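No paired analysis was possible because each group has 1 library. For list medians the range used ran from the median lower bound to the median upper bound of the list's genes. It has the width of the interval of a typical gene and is not a counting interval of the median. Over all alternatives run, 373 list medians stayed within that range, 24 left it and 2 that had been past 2-fold changed sign. Of the ratios of named genes, 348 stayed within their own counting interval, 71 left it and 13 changed sign. Of the cDC1 share ratios, 11 stayed within the counting interval of the main ratio, 1 left it and 2 changed sign. The cause of these moves was not tested except where cells or genes were left out by construction. The log2 ratio of the share was 0.13 over cells not of the B lineage and 0.39 over cells with Cst3 and no Cd3e. The number of genes higher was 104 and lower 248 with ratios centred on their median, 263 and 1101 with at least 10 UMIs per gene, and 23 and 61 with at least 200. With the gate on cells thinned to 2000 UMIs, 166 genes were lower, the cell cycle median was -0.85 and H2ac24 was at 0.37. The MHC class II median was 0.42 as a mean over cells and 0.48 when centred. With at least 3 UMIs of Xcr1 and Clec9a the plasmacytoid median was 0.42.

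Alternatives chosen after seeing the data left out kinds of cells. With at least 3 UMIs of Naaa and Wdfy4, the plasmacytoid median was 0.36 and Siglech was at 0.056. Without Mki67/Top2a cells, 200 genes were lower, the cell cycle median was -0.0052, and the ratios were 2.01 for Pclaf, 0.27 for Mki67, 0.69 for Ube2c, 1.27 for Birc5 and 0.27 for H2ac24. Without Mki67/Top2a and plasmacytoid-marker cells, the share ratio was -0.012, 153 genes were lower, the cell cycle median was -0.049, that of chemokines 1.61, and the ratios were 2.48 for Pclaf, 0.35 for Mki67, 0.58 for Ube2c, 1.16 for Birc5, 0.061 for Siglech and 0.16 for H2ac24, from few UMIs. Thinned to 10000 UMIs, 42.1% of WT and 18.5% of Ring1AKO cDC1 had a UMI of Mki67 or Top2a. With 66 and 59 cells, genes under 50 UMIs were not compared.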
